A study of Rattus norvegicus with 16 samples.

Results

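Mitochondrial content and shape in a cell are set by a small group of nuclear genes, and 10 of these were followed in the liver of septic and control rats under 2 anesthetics. The genes were listed by symbol from their known roles, with earlier results of these data known, and all 10 were found among the 17055 gene symbols of the count files. They are Ppargc1a, Ppargc1b, Esrra, Nrf1 and Tfam, which act in mitochondrial biogenesis, Mfn1, Mfn2 and Opa1, which act in fusion, and Dnm1l and Fis1, which act in fission. Each of the 10 had enough reads to be tested in every comparison.

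The libraries came from 48 male Sprague-Dawley rats aged 10 weeks, with 12 rats in each of 4 groups, a septic and a control group under isoflurane and the same pair under propofol. Sepsis was produced by cecal ligation and puncture, in which the cecum is tied and pierced so that gut content leaks into the abdomen, and in control rats the cecum was only lifted out and put back. Rats of both isoflurane groups were induced and kept asleep with isoflurane, whereas ketamine and xylazine were used to induce both propofol groups, which were then kept on propofol, which is given in a lipid emulsion. All rats were ventilated with oxygen, and none of the groups was without an anesthetic. Liver was taken 8 h after the abdomen was opened, and each library was made from the pooled tissue of 3 rats, so the spread between the 4 libraries of a group is a spread between pools. Libraries are numbered as in the labels, where numbers 1 to 4 are the Isoflurane-Sepsis pools and 5 to 8 their controls, and numbers 9 to 12 are the Propofol-Sepsis pools and 13 to 16 their controls. The library names of the isoflurane and propofol groups carry different codes, so the maintenance drug, the induction drugs and any difference in handling cannot be told apart in a comparison of the anesthetics.

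Ppargc1a and Ppargc1b encode the coactivators PGC-1alpha and PGC-1beta, which bind transcription factors such as the estrogen-related receptor alpha (Esrra) and nuclear respiratory factor 1 (Nrf1) and raise transcription of nuclear genes for mitochondrial proteins. Among the genes reached in this way is Tfam, whose product enters the mitochondrion, packs its DNA and starts its transcription. The mitofusins Mfn1 and Mfn2 join outer membranes, Opa1 joins inner membranes and keeps cristae in shape, and the dynamin-related GTPase Dnm1l, helped by outer membrane proteins such as Fis1, cuts the organelle. In liver, PGC-1alpha is also known as a fasting-induced activator of gluconeogenesis.

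Promoter windows from RefSeq on the rat build GRCr8 were found for 9 of the 10 genes, all except Mfn2, and each window runs from 250 bases before a transcription start to 50 after it. Windows of this kind were searched on both strands for 6 short motifs, and a match is only a description of the letters. Among windows with a match, the 250 bases before the start are shown for Ppargc1a and Tfam, which differed between the control groups. They are also shown for Opa1, which was higher in Propofol-Sepsis. Capitals mark the motif. In Ppargc1a (chr14:63634058-63634307, plus strand) it is the cyclic AMP response element TGACGTCA, in Tfam (chr20:17355123-17355372, plus strand) the GABPA site CCGGAAGT, and in Opa1 (chr11:84689901-84690150, minus strand) the NRF1 site GCGCACGCG.
Ppargc1a: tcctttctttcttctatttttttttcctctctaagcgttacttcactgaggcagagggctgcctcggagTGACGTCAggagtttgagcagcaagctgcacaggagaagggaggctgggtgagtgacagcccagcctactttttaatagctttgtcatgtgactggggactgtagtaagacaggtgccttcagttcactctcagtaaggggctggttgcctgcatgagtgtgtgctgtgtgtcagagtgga
Tfam: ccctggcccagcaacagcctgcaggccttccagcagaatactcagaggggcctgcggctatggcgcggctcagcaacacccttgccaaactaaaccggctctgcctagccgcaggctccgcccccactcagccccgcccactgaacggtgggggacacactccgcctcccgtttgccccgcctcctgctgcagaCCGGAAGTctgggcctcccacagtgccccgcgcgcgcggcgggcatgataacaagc
Opa1: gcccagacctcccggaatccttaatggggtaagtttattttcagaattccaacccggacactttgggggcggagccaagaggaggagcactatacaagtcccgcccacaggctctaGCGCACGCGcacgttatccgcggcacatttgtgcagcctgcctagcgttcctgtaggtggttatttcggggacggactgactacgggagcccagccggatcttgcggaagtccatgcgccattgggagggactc
The cyclic AMP response element lay from -181 to -174 in Ppargc1a, and 1.83% of all 33469 promoter windows held it. The GABPA site lay from -56 to -49 in Tfam, from -32 to -25 in Mfn1 and from 2 to 9 at the second start of Fis1, against 3.81% of all windows. The letters GCGCANGCG, searched as the NRF1 site, lay from -134 to -126 in Opa1 and from -222 to -214 in Esrra, and were in 5.8% of all windows. A YY1 site, AAGATGGCG, lay from 31 to 39 in Ppargc1b and was in 1.73% of windows. The estrogen-related receptor element TNAAGGTCA (1.2% of windows) and the E-box CACGTG (6.42%) were not among the letters of the windows of the 9 genes. None of the 6 motifs lay in the window of Dnm1l, which was also higher in Propofol-Sepsis. The same held for Nrf1 and for the first start of Fis1.

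Reads counted on genes ranged from 14199422 to 49937173 per library, the largest total being that of library 8. Libraries of the same group differed by more than sampling noise in every pair, with a chi-square per degree of freedom of 3.35 or more. Septic libraries agreed less among themselves than control libraries, with mean correlations to their own group of 0.969 to 0.985 against 0.988 to 0.995, and libraries 4 and 10 were the lowest of their groups. The liver markers were abundant, the 10 hepatocyte markers summing to 97470 to 153400 CPM (reads per 1000000 reads on genes, after scaling), while the 4 markers of muscle and brown fat, tissues rich in mitochondria, had close to no reads. The 8 neutrophil and monocyte markers summed to 148 to 201 CPM in isoflurane controls and 1254 to 2074 in Isoflurane-Sepsis, and to 388 to 645 and 1155 to 3280 in the corresponding propofol groups. Lcn2, which inflamed hepatocytes also make, took up most of these sums, at means of 159, 1460, 474 and 2250 CPM in isoflurane controls, Isoflurane-Sepsis, propofol controls and Propofol-Sepsis. The more restricted S100a8 had means of 4.69, 26.1, 6.10 and 13.1 CPM and Itgam of 1.65, 12.8, 2.66 and 7.31, higher in Isoflurane-Sepsis than in Propofol-Sepsis, the reverse of Lcn2, and Mpo had at most 2 reads in any library. The 10 hepatocyte markers summed to 143300 to 153400 CPM in isoflurane controls, 119200 to 131200 in Isoflurane-Sepsis, 106300 to 119000 in propofol controls and 97470 to 108600 in Propofol-Sepsis. Alb took up most of these sums, at means of 89800, 75500, 64800 and 59100 CPM. Hnf4a, at 679 CPM in isoflurane and 967 in propofol controls, went against the sum there. The 8 endothelial markers summed to 263 to 322 CPM, 199 to 245, 331 to 360 and 285 to 304 in the same order. They did not move as a set. Kdr had means of 25.9, 5.73, 45.1 and 12.8 CPM, while Pecam1 (15.5, 16.1, 16.7 and 22.3) and Cdh5 (12.3, 14.4, 14.1 and 15.8) had higher means in sepsis. Of the 8, 5 were called lower and 0 higher under isoflurane, and 2 lower and 1 higher under propofol, where 50.0% and 42.1% of all genes were called. The part of these shifts in the results for the 10 genes was not tested. In whole liver, a change in the number of cells of a type and a change in expression of its markers cannot be told apart.

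The outer membrane fusion gene Mfn2 was lower in sepsis under both anesthetics, and each other gene that passed did so in a single anesthetic. No interaction of sepsis and anesthetic passed for the 10 genes in edgeR with all 16 libraries. Under isoflurane 3 of the 10 genes passed the test at an adjusted p below 0.05 in edgeR, all lower in sepsis (Mfn1, Mfn2 and Fis1). Over all 10361 genes tested there, 50.0% passed, 24.4% in the lower direction. Under propofol 5 of the 10 passed, Opa1 and Dnm1l higher and Ppargc1b, Tfam and Mfn2 lower, against 42.1% of all 10348 genes, 20.4% higher and 21.7% lower. The count under propofol was 2 to 4 with a library left out, where 33.5% to 41.3% of all genes passed. The median log2 fold change of the 10 genes was -0.12 under isoflurane and -0.10 under propofol, beside 0.0061 and -0.0016 over all genes tested. The sepsis comparisons under the anesthetics share no library, and 5 of the 10 genes had the same sign in both, while 77.8% of the 10182 genes tested in both did so. Mfn2 was the only member to pass in the same direction in both, which 29.4% of those genes did.

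**Figure D1:**
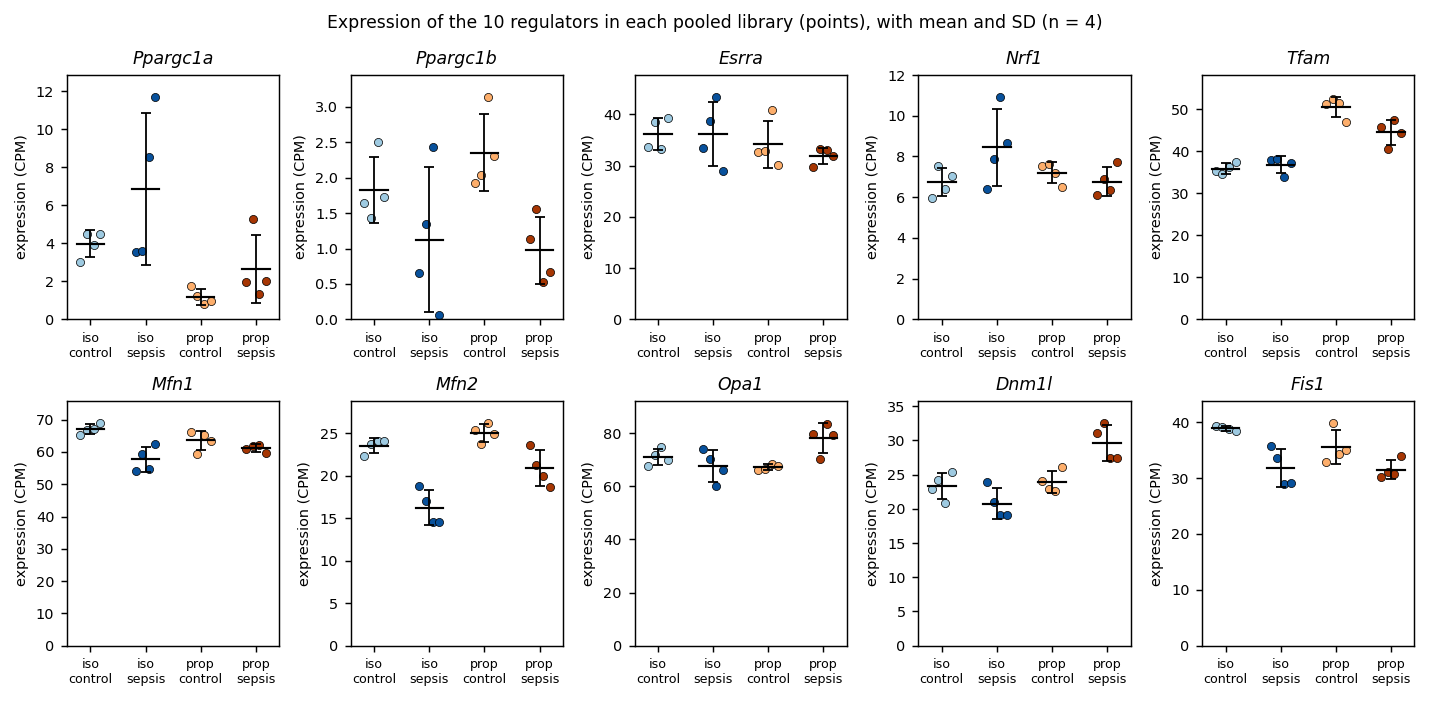
Expression of the 10 genes in CPM (vertical axes, from 0, each gene on its own scale) in the 4 groups. Points are pooled libraries, the horizontal line is the mean and the bar the SD of 4 libraries. Tfam lies between 47.0 and 52.5 in propofol controls, above the other 3 groups except for library 11 of Propofol-Sepsis at 47.5, and Mfn2 has its lowest mean in Isoflurane-Sepsis, at 14.6 to 18.8 per library.

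The plot of expression by library shows how unequal the spread was. Ppargc1a, the inducible coactivator, had few reads, 17 to 217 per library. Values below are CPM after scaling by edgeR's TMM factors. In the Isoflurane-Sepsis libraries Ppargc1a stood at 3.54, 3.61, 8.55 and 11.7 CPM in libraries 1 to 4, and in their controls at 3.01, 4.51, 3.90 and 4.52 in libraries 5 to 8. Libraries 3 and 4 lay above every control and libraries 1 and 2 within the range of the controls. The mean was 6.86 ± 4.00 CPM in sepsis and 3.98 ± 0.711 in controls (SD, n = 4), a log2 fold change of 0.78 (SE 0.381) that did not pass the test (edgeR adjusted p = 0.117). It passed only when library 1 was left out (log2 fold change 1.00, edgeR adjusted p = 0.0345), and without library 4 it came to 0.41.

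In Propofol-Sepsis Ppargc1a stood at 1.98, 5.27, 1.34 and 2.04 CPM in libraries 9 to 12, and in propofol controls at 1.74, 1.22, 0.809 and 0.960 in libraries 13 to 16. Library 10 was far above the rest, and library 11 lay below the highest control. The log2 fold change was 1.18 (SE 0.435) with an edgeR adjusted p of 0.0529, just short of the threshold, whereas DESeq2 gave 0.0235. It passed in 3 of 16 other settings, DESeq2 among them. Without library 10 the log2 fold change was 0.64. The coefficient of variation of Ppargc1a was 58.4% in Isoflurane-Sepsis and 66.7% in Propofol-Sepsis, where counting alone would give 9.07% and 13.1%, and 17.8% and 34.5% in the respective controls.

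The difference in Ppargc1a that passed the test was that between the control groups. All 4 isoflurane controls lay above all 4 propofol controls, at means of 3.98 ± 0.711 and 1.18 ± 0.408 CPM (SD, n = 4), a 3.49-fold difference (log2 1.80, SE 0.22, edgeR adjusted p = 1.33e-04). Of all 10314 genes tested between the control groups 43.3% passed, 21.6% higher and 21.7% lower under isoflurane, and of the 10 members 2 did, Ppargc1a and Tfam. In septic libraries the same contrast had a log2 fold change of 1.36 (SE 0.519, edgeR adjusted p = 0.088), with library 10 inside the range of Isoflurane-Sepsis. It passed in 3 of 16 other settings. The change of Ppargc1a with sepsis was not shown to differ between the anesthetics, the interaction being -0.41 (SE 0.623, edgeR adjusted p = 0.706).

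Ppargc1b, the coactivator more tied to lipid synthesis in liver, had 1 to 83 reads per library. In propofol controls it stood at 1.93, 2.04, 3.14 and 2.30 CPM in libraries 13 to 16, and in Propofol-Sepsis at 1.13, 1.56, 0.534 and 0.669 in libraries 9 to 12. Every septic library lay below every control. The means were 2.35 ± 0.549 and 0.973 ± 0.467 CPM (SD, n = 4), and Ppargc1b fell by 59.3% (log2 fold change -1.30, SE 0.328, edgeR adjusted p = 0.0109). The call was kept with each of the 8 libraries left out in turn, and was lost in a fit of all 16 libraries together (edgeR adjusted p = 0.0648).

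Under isoflurane the groups of Ppargc1b overlapped. The controls stood at 1.65, 1.44, 2.51 and 1.73 CPM in libraries 5 to 8 and the septic libraries at 0.649, 1.35, 2.43 and 0.0604 in libraries 1 to 4, the last being a single read in library 4. The log2 fold change of -0.67 (SE 0.596) did not pass (edgeR adjusted p = 0.373), and the interaction of 0.60 (SE 0.747) did not either (edgeR adjusted p = 0.637). Library 4 thus had the highest Ppargc1a and the lowest Ppargc1b of all 16 libraries.

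**Figure D2:**
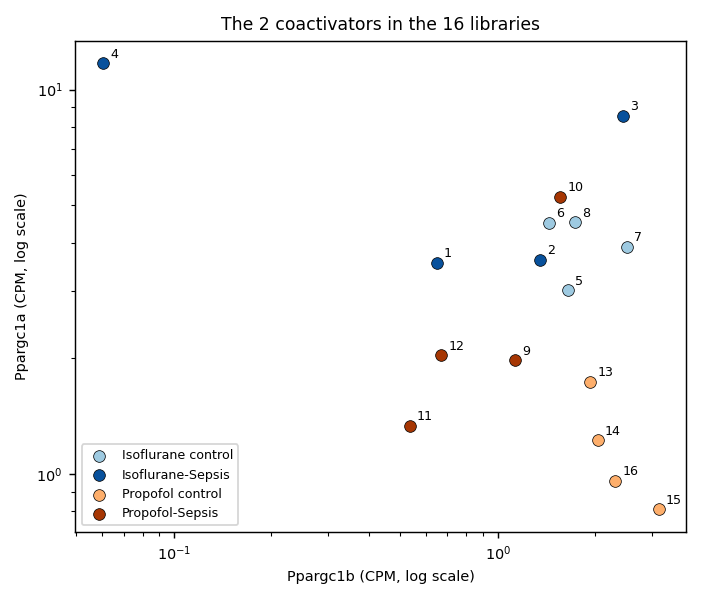
Ppargc1a against Ppargc1b, both in CPM on log axes, with a point for each of the 16 libraries, numbered and coloured by group. The 4 propofol controls (13 to 16) lie at the lower right, and library 4, with 11.7 CPM of Ppargc1a and 0.0604 of Ppargc1b, stands alone at the upper left.

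As the plot of the coactivators shows, the balance between these genes differed between groups of libraries. The ratio of Ppargc1a to Ppargc1b reads, with 0.5 added to each, was 0.902, 0.606, 0.263 and 0.423 in propofol controls (libraries 13 to 16), and these were the only libraries below 1. It was 1.73, 3.34, 2.43 and 3.00 in Propofol-Sepsis (libraries 9 to 12). In the isoflurane controls it was 1.82, 3.10, 1.55 and 2.60 (libraries 5 to 8), a range that held 3 of the 4 Propofol-Sepsis libraries. In Isoflurane-Sepsis it was 5.30, 2.63, 3.48 and 130 (libraries 1 to 4), where the last value rests on the single Ppargc1b read. The ratio takes no account of transcript length, was set up after values had been seen, and is given with no test.

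Tfam, the packaging and transcription factor of mitochondrial DNA, separated the anesthetics. Isoflurane controls stood at 35.3, 34.6, 36.3 and 37.4 CPM (libraries 5 to 8) and propofol controls at 51.2, 52.5, 51.5 and 47.0 (libraries 13 to 16), with means of 35.9 ± 1.24 and 50.6 ± 2.41 (SD, n = 4). Tfam was lower by 0.49 on the log2 scale under isoflurane (log2 fold change -0.49, SE 0.0528, edgeR adjusted p = 5.89e-05). This call held under each alternative run and with each library left out.

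Septic libraries of the anesthetics did not overlap in Tfam either. Isoflurane-Sepsis stood at 38.0, 38.2, 33.8 and 37.1 CPM (libraries 1 to 4) and Propofol-Sepsis at 45.8, 40.5, 47.5 and 44.4 (libraries 9 to 12), a log2 fold change of -0.28 (SE 0.0783, edgeR adjusted p = 0.0389). Of all 10272 genes tested in this contrast 19.3% passed, 8.66% lower under isoflurane, against 2 of the 10 members, Tfam and Dnm1l. Leaving out library 2, 3, 4, 9, 11 or 12 ended the call for Tfam, at edgeR adjusted p-values of up to 0.115, as did leaving out the filter on low counts (0.0603) or thinning the counts (0.0544). With sepsis Tfam fell by 12.3% under propofol (log2 fold change -0.19, SE 0.0665, edgeR adjusted p = 0.0439), where library 11 at 47.5 CPM lay above the lowest control at 47.0. That call was lost with RLE size factors (edgeR adjusted p = 0.053), with DESeq2 (0.0539), without the filter on low counts (0.0781), with thinned counts (0.0575) and without library 9, 10, 12, 13, 14 or 15. Under isoflurane Tfam had a log2 fold change of 0.04 (SE 0.0635, edgeR adjusted p = 0.652), and the interaction was 0.22 (SE 0.0891, unadjusted p = 0.027, edgeR adjusted p = 0.162).

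Nrf1 and Esrra, the transcription factors bound by the coactivators, did not pass in the main fit of any comparison. Nrf1 encodes nuclear respiratory factor 1, which binds promoters of many respiratory chain genes. Nrf1 stood at 6.39, 7.86, 10.9 and 8.64 CPM in Isoflurane-Sepsis and at 5.97, 7.52, 6.41 and 7.04 in its controls, so that 3 of the 4 septic libraries lay above every control. The log2 fold change was 0.33 (SE 0.17, edgeR adjusted p = 0.132), and passed only without library 1 (0.45, edgeR adjusted p = 0.0279). Under propofol the septic libraries stood at 6.10, 6.88, 6.36 and 7.72 CPM and the controls at 7.53, 7.63, 7.19 and 6.48, with a log2 fold change of -0.09 (SE 0.11, edgeR adjusted p = 0.532).

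Esrra, an orphan nuclear receptor through which the coactivators act, ranged from 29.0 to 43.4 CPM over the 16 libraries. Its extremes were both in Isoflurane-Sepsis, which stood at 33.4, 38.7, 43.4 and 29.0 CPM against 33.6, 38.5, 33.3 and 39.3 in controls. Propofol-Sepsis stood at 29.7, 33.2, 33.0 and 31.8 CPM against 32.6, 32.9, 40.9 and 30.2 in controls. The log2 fold changes with sepsis were 0.0036 (SE 0.132, edgeR adjusted p = 0.986) under isoflurane, a value whose sign turned in 10 of 16 other settings, and -0.10 (SE 0.0919, edgeR adjusted p = 0.388) under propofol.

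Among the fusion genes, Mfn2 had the smallest adjusted p with sepsis under isoflurane. Mfn2 encodes mitofusin 2, which also tethers mitochondria to the endoplasmic reticulum. It stood at 18.8, 17.1, 14.6 and 14.6 CPM in Isoflurane-Sepsis and at 22.3, 23.7, 24.1 and 24.1 in its controls, with means of 16.2 ± 2.06 and 23.6 ± 0.859 (SD, n = 4). The groups were far apart, and Mfn2 fell by 31.0% (log2 fold change -0.53, SE 0.0928, edgeR adjusted p = 0.00179). The call held in each of 16 other settings, with edgeR, DESeq2 or limma-voom adjusted p-values of at most 0.00807.

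Under propofol Mfn2 stood at 23.6, 21.3, 19.9 and 18.6 CPM in sepsis and at 25.4, 23.7, 26.2 and 24.9 in controls. The highest septic library, library 9, was only just below the lowest control, library 14. Mfn2 fell by 17.2% (log2 fold change -0.27, SE 0.0819, edgeR adjusted p = 0.0237), and the call was lost without library 11, 12, 13, 15 or 16 (edgeR adjusted p-values of 0.0519 to 0.0678) and with counts thinned to the shallowest library (0.0505). The fall under isoflurane was the larger by point estimate, but the interaction of -0.27 (SE 0.127, unadjusted p = 0.0487) did not pass after adjustment (edgeR adjusted p = 0.214).

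Mfn1, the mitofusin that mainly docks outer membranes, passed under isoflurane. It stood at 54.0, 59.5, 54.8 and 62.4 CPM in Isoflurane-Sepsis and at 65.3, 66.8, 67.1 and 68.9 in its controls. The groups did not overlap, and Mfn1 fell by 13.9% (log2 fold change -0.22, SE 0.0671, edgeR adjusted p = 0.0251), a call lost without library 6, 7 or 8 (edgeR adjusted p-values of 0.0592, 0.0585 and 0.0723). Under propofol the septic libraries stood at 60.9, 61.9, 62.2 and 59.7 CPM, inside the range of the controls at 66.2, 59.5, 65.3 and 63.3, and the log2 fold change was -0.06 (SE 0.0543, edgeR adjusted p = 0.389). The interaction for Mfn1 was -0.16 (SE 0.0819, edgeR adjusted p = 0.24).

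Opa1, the inner membrane fusion GTPase, rose with sepsis under propofol. It stood at 79.6, 70.4, 83.6 and 79.2 CPM in Propofol-Sepsis and at 66.3, 66.6, 68.5 and 67.4 in its controls, with means of 78.2 ± 5.55 and 67.2 ± 0.993 (SD, n = 4). Every septic library lay above every control, and the rise was 15.9% (log2 fold change 0.21, SE 0.0629, edgeR adjusted p = 0.022). The call was lost without library 9, 11, 12, 13 or 14 (edgeR adjusted p-values of 0.0525 to 0.0725), with scaling to library totals (0.0674) and without the filter on low counts (0.0645). Under isoflurane Opa1 stood at 73.9, 70.4, 59.98 and 66.0 CPM in sepsis and at 67.7, 71.7, 74.8 and 70.0 in controls, and the overlapping groups gave a log2 fold change of -0.07 (SE 0.0738, edgeR adjusted p = 0.448). The interaction was -0.29 (SE 0.0983, unadjusted p = 0.00928) and did not pass in edgeR (adjusted p = 0.101), while DESeq2 put it just past the threshold (adjusted p = 0.049). It also passed without library 1 (edgeR adjusted p = 0.0291), where 15.1% of all interactions passed.

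Of the fission genes, Dnm1l rose with sepsis under propofol. Dnm1l encodes the GTPase DRP1, which assembles around the mitochondrion and constricts it. It stood at 31.1, 32.5, 27.5 and 27.5 CPM in Propofol-Sepsis and at 24.1, 22.8, 22.7 and 26.1 in its controls, with means of 29.6 ± 2.59 and 23.9 ± 1.59 (SD, n = 4). The groups did not overlap, and the rise was 23.3% (log2 fold change 0.30, SE 0.0817, edgeR adjusted p = 0.0147). Under the 0.05 threshold this call held in every other setting run.

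Under isoflurane Dnm1l stood at 23.9, 21.01, 19.2 and 19.0 CPM in sepsis and at 22.9, 24.2, 20.9 and 25.3 in controls. Libraries 3 and 4 lay below every control and libraries 1 and 2 within their range, with a log2 fold change of -0.17 (SE 0.0941, edgeR adjusted p = 0.167). The point estimates under the anesthetics thus had opposite signs. The interaction of -0.48 (SE 0.128, unadjusted p = 0.00184) had the smallest p of the 10 genes but missed the threshold in edgeR (adjusted p = 0.0584). It passed with DESeq2 (adjusted p = 0.0154) and without library 1 (edgeR adjusted p = 0.0096). Over all genes 2.72% of interactions passed in the main edgeR fit, 7.97% with DESeq2 and 15.1% without library 1. Septic libraries of the anesthetics did not overlap in Dnm1l, with 19.0 to 23.9 CPM under isoflurane and 27.5 to 32.5 under propofol (log2 fold change -0.52, SE 0.104, edgeR adjusted p = 0.0171). Controls did overlap (log2 fold change -0.03, SE 0.073, edgeR adjusted p = 0.75). Leaving out library 9 or 12 ended the call between septic libraries (edgeR adjusted p = 0.0595 and 0.0522).

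Fis1, an outer membrane protein of the fission machinery, was lower in sepsis under isoflurane. It stood at 35.7, 33.6, 29.0 and 29.1 CPM in Isoflurane-Sepsis and at 39.4, 39.1, 38.7 and 38.4 in controls, a tight control group that no septic library reached. Fis1 fell by 17.99% (log2 fold change -0.29, SE 0.0786, edgeR adjusted p = 0.0148), and under the 0.05 threshold the call held in every other setting. Under propofol Fis1 stood at 30.2, 31.0, 30.7 and 34.0 CPM in sepsis and at 32.8, 39.8, 34.2 and 35.0 in controls. There, library 12 lay above the lowest control, and the log2 fold change of -0.18 (SE 0.0765) did not pass (edgeR adjusted p = 0.0887). The interaction was -0.12 (SE 0.11, edgeR adjusted p = 0.519).

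**Figure D3:**
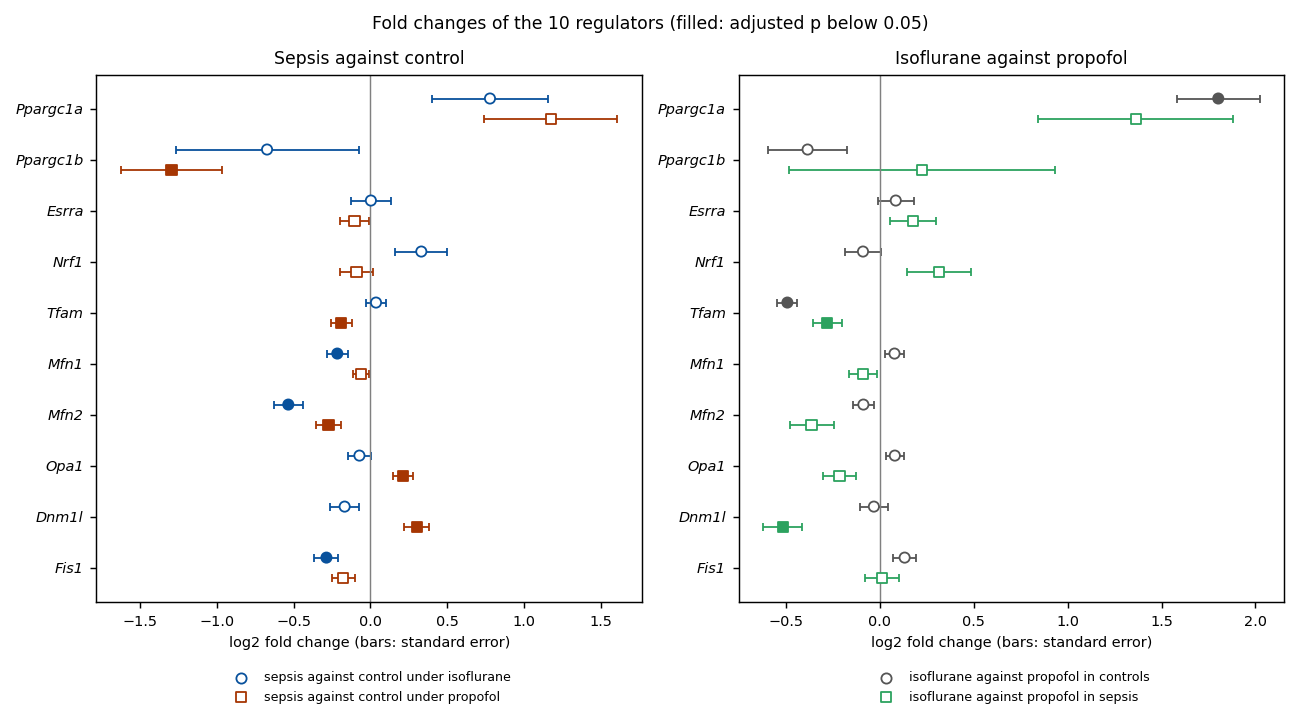
Log2 fold changes of the 10 genes (horizontal axes) with standard errors as bars, for sepsis against control within each anesthetic (left) and isoflurane against propofol within controls and within septic rats (right). Filled markers passed the test. On the left, Mfn2 is filled and below 0 for both anesthetics, while Opa1 and Dnm1l are filled and above 0 under propofol alone, at 0.21 and 0.30.

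None of the 10 interactions passed in edgeR with all 16 libraries, where 2.72% of all 10621 genes did. Of the 10, 4 (Dnm1l, Opa1, Tfam and Mfn2) had an unadjusted p below 0.05, as had 2449 of the 10621 genes. DESeq2 called 2 of the 10, Opa1 and Dnm1l, and 7.97% of all genes. The plot of fold changes shows the same data by comparison. In the sepsis comparisons the groups of 3 members did not overlap under isoflurane and those of 4 under propofol, against 48.7% and 42.2% of all genes tested. Between controls and between septic groups of the anesthetics they did not overlap for 2 members each, against 40.3% and 25.6% of genes. These anesthetic contrasts use the same libraries as the sepsis contrasts and are not independent of them. They also moved most with the scaling, since scaling by library totals alone shifted the median of all genes by -0.145 between controls and -0.146 between septic groups on the log2 scale. The split of calls then went from 2225 higher and 2243 lower to 1139 and 3824 between controls, from 1092 and 890 to 594 and 2177 between septic groups, and from 2107 and 2246 to 1675 and 2700 for sepsis under propofol.

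Of 26 listed partners and regulators of the coactivators 22 were tested. Over all genes 25.7% were called higher and 24.4% lower under isoflurane, and 20.4% and 21.7% under propofol. Calls of the 22 were close to these shares, except for fewer higher calls under propofol. Under isoflurane 6 were higher and 5 lower, with a median log2 fold change of -0.01, and under propofol 2 were higher and 5 lower, with a median of -0.03. Hnf4a, Rxra, Esrrg, Sirt3 and Nr0b2 were the genes that fell, under isoflurane and again under propofol. The liver master regulator Hnf4a went from 679 ± 15.5 to 325 ± 50.6 CPM under isoflurane and from 967 ± 36.1 to 584 ± 41.0 under propofol (SD, n = 4; edgeR adjusted p = 1.55e-04 and 5.63e-05). Rxra, the common partner of nuclear receptors, changed by -1.19 and -0.81 on the log2 scale, and the estrogen-related receptor Esrrg by -2.43 and -1.80. Sirt3, a mitochondrial deacetylase, changed by -1.32 and -0.83, and Nr0b2, a corepressor, by -2.71 and -3.42, from low levels of at most 12.7 CPM. Esrrg thus fell while Esrra, its relative among the 10 genes, had log2 fold changes of 0.0036 and -0.10. Levels of Esrrg were low too, at most 4.95 CPM, with 4 to 21 reads per library in Isoflurane-Sepsis and 13 to 30 in Propofol-Sepsis.

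The partners that rose were fewer under propofol. Yy1, a transcription factor that works with PGC-1alpha, rose under both (0.62 and 0.35 on the log2 scale, edgeR adjusted p = 0.00548 and 0.00188). Nrip1, a corepressor, rose from 15.97 ± 1.18 to 61.2 ± 40.0 CPM under isoflurane (edgeR adjusted p = 0.00389). Pprc1, the remaining relative of the coactivators, rose under isoflurane by 0.43 on the log2 scale (edgeR adjusted p = 0.00626) and had 0.14 under propofol (edgeR adjusted p = 0.241). The AMP-activated kinase subunit Prkaa1 rose under isoflurane (0.79, edgeR adjusted p = 0.0196), as did Ppard (0.53, edgeR adjusted p = 0.0229). The other catalytic subunit, Prkaa2, rose under propofol from 30.5 ± 3.60 to 45.6 ± 5.76 CPM (SD, n = 4; edgeR adjusted p = 0.0026) and stood at 45.7 ± 5.05 and 43.4 ± 4.32 in isoflurane controls and Isoflurane-Sepsis. Its interaction passed the test (-0.65, SE 0.157, edgeR adjusted p = 0.0424).

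Genes that maintain and transcribe mitochondrial DNA, the group in which Tfam works, were lower in sepsis wherever they passed. Of 28 listed genes 22 were tested, and 10 passed under isoflurane and 9 under propofol, 0 of them higher, with median log2 fold changes of -0.29 and -0.23. Over all genes 50.0% and 42.1% passed, 24.4% and 21.7% as lower. Under isoflurane the smallest adjusted p-values among these were those of the ribonucleotide reductase subunit Rrm2b (-1.31), Suclg1 (-0.51), the topoisomerase Top1mt (-0.53), the polymerase subunit Polg2 (-0.76) and the RNA-binding Lrpprc (-0.51). Under propofol they were those of Lrpprc (-0.46), the mitochondrial RNA polymerase Polrmt (-0.49), Polg2 (-1.09), the helicase Peo1 (-0.33) and the thymidine kinase Tk2 (-0.36). Polg2 stood at 5.28 ± 0.712 CPM in isoflurane controls and 16.8 ± 2.37 in propofol controls, and at 3.10 ± 0.556 and 7.93 ± 1.63 in the septic groups (SD, n = 4). Between the control groups 12 of the 22 were lower under isoflurane, the direction of Tfam, and 1 was higher, with a median of -0.20. Over all genes 21.7% were lower and 21.6% higher there, a split that moved with scaling by library totals.

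Genes around the fission GTPase were called in both directions. Of 19 listed adaptors and regulators 12 were tested, with 2 higher and 3 lower under isoflurane and 1 higher and 2 lower under propofol, at medians of -0.15 and -0.11, where 50.0% and 42.1% of all genes passed. Mtfp1, an inner membrane protein that promotes fission, fell under both (-0.71 and -0.40 on the log2 scale, edgeR adjusted p = 0.00239 and 0.00437). Under isoflurane Slc25a46 (-0.31) and Mtfr1l (-0.29) also fell, and the actin nucleator Spire1 (1.12) and the phosphatase Pgam5 (0.30) rose. Under propofol Dnm2, a dynamin, rose from 81.0 ± 4.00 to 106 ± 6.12 CPM (SD, n = 4; log2 fold change 0.38, edgeR adjusted p = 0.00133), in the direction of Dnm1l, and the ubiquitin ligase March5 fell (-0.31, edgeR adjusted p = 0.0213). Mff, an adaptor of DRP1, and the Opa1 protease gene Yme1l1 were listed at 0 in all 16 libraries. So was the collagen gene Col1a2, although Col1a1 and Col3a1 were not, and a value listed at 0 does not show that a gene was absent.

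Genes of fusion, cristae and Opa1 processing were lower wherever they passed. Of 22 listed genes 16 were tested, with 7 lower under isoflurane and 3 under propofol and 0 higher in either, at medians of -0.20 and -0.05. Of all genes 24.4% and 21.7% were called lower, and 50.0% and 42.1% were called in all. The deubiquitinase Usp30 fell by 0.55 and 0.53 on the log2 scale and the cristae junction protein Apool by 0.52 and 0.32 under isoflurane and propofol (edgeR adjusted p from 8.69e-04 to 0.0114). Chchd3 (-0.38), Fam73b (-0.33) and Apoo (-0.52) also fell under isoflurane. Oma1, the protease that cleaves Opa1 under stress, fell under propofol from 7.96 ± 1.22 to 5.56 ± 1.19 CPM (SD, n = 4; log2 fold change -0.52, edgeR adjusted p = 0.0354) and under isoflurane from 5.08 ± 0.534 to 3.68 ± 0.638 (edgeR adjusted p = 0.0281).

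**Figure D4:**
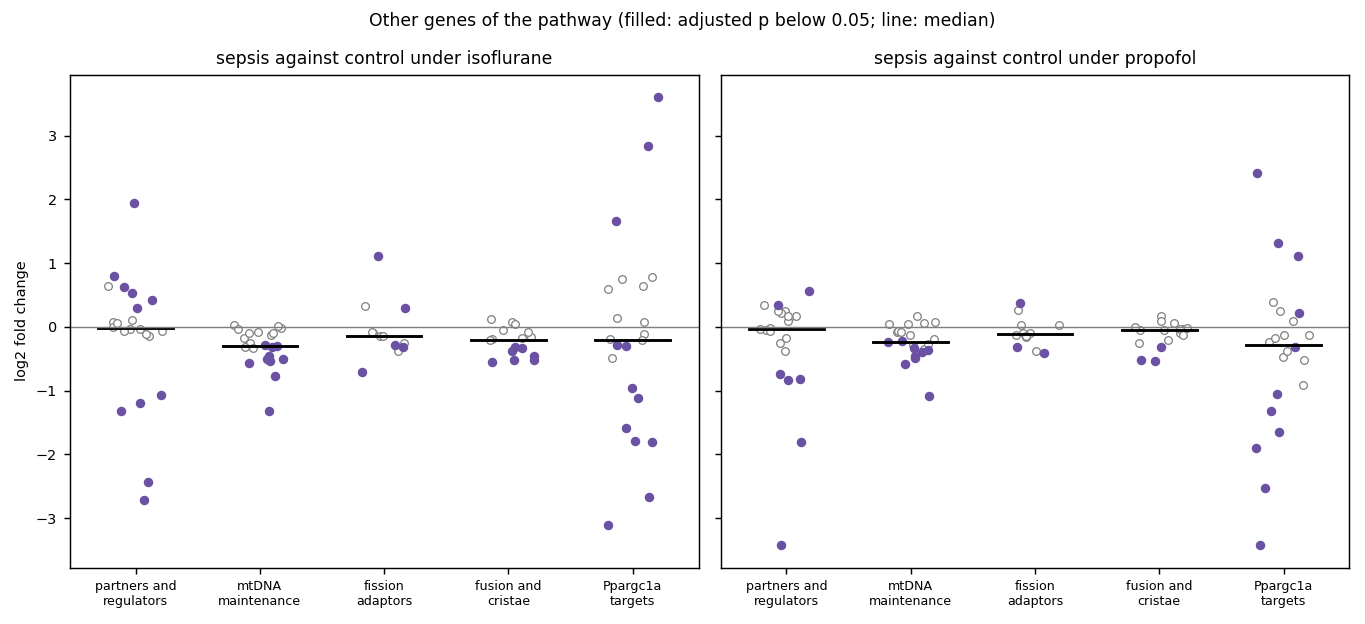
Log2 fold change of sepsis against control (vertical axis) for every tested gene of 5 lists around the 10 genes, under isoflurane (left) and propofol (right). Filled points passed the test and the line is the list's median. No filled point of the mitochondrial DNA list or of the fusion and cristae list lies above 0.

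The liver targets of PGC-1alpha did not move as a block, as the plot of the lists shows. All 22 were tested, with 3 higher and 9 lower under isoflurane and 4 higher and 7 lower under propofol, at medians of -0.20 and -0.28, and 50.0% and 42.1% of all genes passed. Sod2, the mitochondrial superoxide dismutase, which is also induced by inflammatory cytokines, rose by 2.84 and 2.42 on the log2 scale. The gluconeogenic gene Pck1 rose under propofol from 660 ± 202 to 1427 ± 465 CPM (SD, n = 4; edgeR adjusted p = 0.00558) and stood at 1793 ± 117 and 3068 ± 1713 in isoflurane controls and Isoflurane-Sepsis (edgeR adjusted p = 0.0851). G6pc, the last step of gluconeogenesis, went the other way under isoflurane (-1.59, edgeR adjusted p = 0.0167). Tat, an amino acid-degrading enzyme, rose under propofol (1.31, edgeR adjusted p = 0.00869), as did cytochrome c (Cycs, 0.22, edgeR adjusted p = 0.0187).

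The targets in fat oxidation and heme synthesis were lower in sepsis. Cpt1a, the gate of mitochondrial fatty acid entry, went from 409 ± 36.1 to 47.5 ± 8.87 CPM under isoflurane and from 428 ± 163 to 137 ± 21.2 under propofol (SD, n = 4), and its interaction passed (-1.46, SE 0.304, edgeR adjusted p = 0.0268). The hormone Fgf21 changed by -2.66 and -3.42 and the heme synthesis enzyme Alas1 by -1.11 and -1.90 on the log2 scale. Catalase (Cat) changed by -0.96 and -1.06. Idh3a, of the citric acid cycle, changed by -0.31 under isoflurane (edgeR adjusted p = 0.0116). Pdk4 passed as higher under isoflurane (3.61, SE 0.934, edgeR adjusted p = 0.0116) although its groups overlapped, with 10.2 to 512 CPM in sepsis and 11.4 to 16.7 in controls.

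Over the 16 libraries, the genes whose log2 CPM followed each member most closely were taken by Pearson's r among 8884 genes, as a description across libraries that share groups and depth. For Ppargc1a they were Foxo4 (r = 0.958), Kif3a (0.948) and Pdha1 (0.934), and for Ppargc1b Cacna1d (0.931), Fam35a (0.92) and Pdk2 (0.91). For Tfam they were Mars (0.965), Gars (0.963) and Peo1 (0.963), the last being on the mitochondrial DNA list. For Esrra they were Rps6ka4 (0.847), Zfp36 (0.836) and Gapdh (0.813), and for Nrf1 Smagp (0.839), Tmem11 (0.835) and Srsf9 (0.828). Mfn2 was followed by Lrp1 (0.958), Copg2 (0.956) and Kif13a (0.955), and Mfn1 by Rrm2b (0.873), Glyr1 (0.871) and RGD1565310 (0.847). Opa1 was followed by Ide (0.935), Edem2 (0.899) and Ube4a (0.878). For Dnm1l they were Sharpin (0.876), Usp45 (0.869) and Psma1 (0.863), and for Fis1 Cgref1 (0.931), Mrps36 (0.927) and Tmem204 (0.926). Members were left out of the 8884 genes, so likeness between members was not measured.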

How the data were processed

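Liver tissue of 48 rats was pooled by 3 for 16 libraries, made from polyadenylated RNA with a strand-keeping kit. For each library the authors deposited counts, whole numbers of reads on 17055 gene symbols, without normalization. The submitters' processing notes name STAR and rn5. The counting program, annotation and tool versions were not given in the sources used here, and therefore only promoter windows from RefSeq carry coordinates (GRCr8). Reads outside genes (21.6% to 25.4% of a library) and ambiguous reads (1.07% to 1.35%) were left out of library sizes. Groups came from the sample labels. Nothing in the labels says more of replication than the pools, so p-values measure the spread between these pools.

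Septic and control libraries were compared under each anesthetic, and isoflurane with propofol within controls and within sepsis, in fits of 4 libraries against 4, and the interaction (isoflurane minus propofol) in a fit of all 16, by edgeR 4.0.16 (quasi-likelihood, TMM, filterByExpr with a minimum count of 10 and minimum total of 15) in R 4.3.3. Adjustment was by the Benjamini-Hochberg method over every gene in a fit, with calls made below 0.05. The SE of a log2 fold change is its size over the root of the F statistic. Scripts were tested on simulated data. CPM per library use TMM factors over the 16 libraries, and low counts limit Ppargc1a and Ppargc1b.

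The 10 genes, the lists and the rules were chosen with earlier results of these data known. All 10 are named. From the lists, the called genes with the smallest adjusted p are named, up to 5 per direction and comparison, and those with a called interaction, though 2 of these genes are counted but not reported here. For likeness, the 3 genes with the highest r of log2 CPM (prior count 2) are named. They were taken among genes outside the 10 whose mean log2 CPM reached 1. Mff, Yme1l1 and G6pc, and values of a named gene in another comparison, were chosen after they were seen. Alternatives were RLE size factors, library totals, DESeq2 1.42.0, limma-voom (limma 3.58.1), no filter, a mean CPM of at least 1, thinned counts, an adjusted p below 0.01, all 16 libraries in 1 fit, and each library left out.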

Additional observations from a re-analysis of the deposited data

How the results depend on the processing

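The number of the 10 genes called for sepsis under isoflurane was 3. It became 1 at an adjusted p below 0.01 and ran from 2 to 6 with a library left out. Over all genes 50.0% passed there, 30.9% at an adjusted p below 0.01, and 39.7% to 54.2% with a library left out. The 5 called under propofol became 3 without the filter on low counts, 3 with thinned counts and 0 at an adjusted p below 0.01. With a library left out the count ran from 2 to 4. Over all genes 42.1% passed there, 29.0% without the filter, 40.4% with thinned counts and 25.4% at an adjusted p below 0.01. With a library left out this share ran from 33.5% to 41.3%. Mfn2 and Fis1 under isoflurane, and Ppargc1b and Dnm1l under propofol, passed with every library left out in turn. Of the interactions, 0 passed in the main edgeR fit and 2 with DESeq2 or without library 1 (range 0 to 2). Over all genes 2.72% of interactions passed in the main fit, 7.97% with DESeq2 and 15.1% without library 1. Of the genes called between septic groups, 2 became 5 with library totals alone, 4 with DESeq2, 1 without the filter, 1 with thinned counts, 0 at an adjusted p below 0.01 and 5 with all 16 libraries in 1 fit, and ran from 0 to 3 with a library left out. There, the share over all genes was 19.3%, and it was higher with library totals alone. It was 28.1% with DESeq2, 10.9% without the filter, 18.8% with thinned counts and 1.18% at an adjusted p below 0.01. With all 16 libraries in 1 fit this share was 38.6%, and with a library left out it ran from 2.41% to 27.7%. Between controls the count ran from 2 to 3, and the share over all genes from 26.3% to 48.1%.

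Some log2 fold changes that had not been called changed sign. Esrra in sepsis under isoflurane (0.0036) came to -0.0654 with library totals, -0.0107 with limma-voom, -0.0278 without the filter, -5.14e-06 at a mean CPM of at least 1, -0.0149 with thinned counts and -0.0017 with all 16 libraries, and ran from -0.109 to 0.0986 with a library left out. With library totals Tfam in sepsis under isoflurane came to -0.0301, and between controls Esrra came to -0.0607, Mfn1 to -0.0677, Opa1 to -0.0656 and Fis1 to -0.0125. Between septic groups Fis1 came to -0.134 with library totals and Ppargc1b to -0.374 with limma-voom. With a library left out the interaction ran from -0.796 to 0.135 for Ppargc1a, from -0.13 to 0.989 for Ppargc1b and from -0.0053 to 0.187 for Esrra, Dnm1l between controls from -0.0754 to 0.0153, and between septic groups Ppargc1b from -0.505 to 0.61 and Fis1 from -0.0488 to 0.0545. The cause was not tested. Of 920 values for the genes under other settings, 822 kept their direction and their side of the threshold, 46 lost and 24 gained a call, and 28 changed sign. No paired analysis was possible because the groups compared share no replicate numbers. Few reads limit the precision for Ppargc1a and Ppargc1b, and intervals between pools say nothing of single rats.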
